A study of Mus musculus with 17 samples.

Results

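The genes of the machinery that carries and translationally controls mRNA in dendrites were followed here through 10 of their members, by every probe set of the array that is assigned to a single one of the symbols Fmr1, Fxr1, Fxr2, Stau1, Stau2, Cpeb1, Cpeb2, Cpeb3, Cpeb4 or Pura. This gave 31 probe sets of the 45037 analysed, for 10 of 18193 genes: 3 for Fmr1, 4 for Fxr1, 1 for Fxr2, 3 for Stau1, 3 for Stau2, 1 for Cpeb1, 3 for Cpeb2, 4 for Cpeb3, 3 for Cpeb4 and 6 for Pura. Another probe set, shared by Pura and Igip, was left out. The genes were chosen for their function.

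Messenger RNAs that are translated near synapses leave the soma in granules, in which RNA-binding proteins hold them silent and link them to motors on microtubules. FMRP, the product of Fmr1, binds many neuronal mRNAs and represses their translation, and loss of its expression causes fragile X syndrome in humans. Fxr1 and Fxr2 encode its close relatives. The Staufen proteins Stau1 and Stau2 bind double-stranded stretches of RNA, the CPEB proteins bind elements near the 3' end and control the poly(A) tail and translation, and Pur-alpha, the product of Pura, is a single-stranded nucleic acid binding protein that is found in kinesin-associated RNA granules.

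All arrays measured mRNA of the cortex of adult female C57BL/6 mice, with no other treatment and no altered gene. Dilutions of this mRNA to 0.1, 1 and 10 pg, amounts in the range of a single cell, were amplified linearly as antisense RNA (aRNA) for 2 or 4 rounds, and 5 µg was hybridized without amplification, which is called bulk here. The 17 arrays fall into 7 groups: 4 rounds were run on all inputs, with 3 arrays for each, and 2 rounds on 0.1 and 1 pg, with 3 arrays for each, and on 10 pg, with 1 array, as for bulk. The comparisons ask how the level of a transcript changes with the input and with the rounds of amplification. By the study's methods all aliquots came from 1 preparation of cortical mRNA and were amplified separately, so that a p-value rests on how much amplifications scatter and says nothing of animals.

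Values are log2 levels relative to the median of the array, so that a level of 0 is the median of its array, and percentiles give the place among all probe sets of that array. The array medians of the deposited values lay between 5.64 and 6.01. The 10 pg array after 2 rounds held 872 distinct values, so that several of the 31 probe sets share a value there. In bulk, 6 of 6 pan-neuronal markers were above the array's median, with their median at percentile 94.9, as were 5 of 6 astrocyte and 3 of 4 oligodendrocyte markers, while the genes of liver, muscle, pancreas and testis had 3 of 6 above it, with their median at percentile 38.7. Excitatory neuron markers had 3 of 3, inhibitory neuron markers 3 of 5, microglia markers 3 of 5, markers of endothelium and pericytes 4 of 5 and blood markers 1 of 2 above the median.

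Fewer of the 31 probe sets lay above the median of the array after dilution and amplification than in bulk cortex mRNA. After 4 rounds, 15 to 17 were above it on the 0.1 pg arrays, 16 to 19 on those of 1 pg and 22 to 23 on those of 10 pg. After 2 rounds, the numbers were 9 to 13 at 0.1 pg, 15 to 19 with 1 pg and 17 with 10 pg, and in bulk 26 were above it. The median splits the probe sets of every array evenly, and no other probe sets of like level in bulk were counted. Whether the fall is particular to these genes was therefore not tested. All groups came from 1 preparation of cortical mRNA, so these counts say nothing of the number of cells that express a gene or of the RNA per cell.

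**Figure D1:**
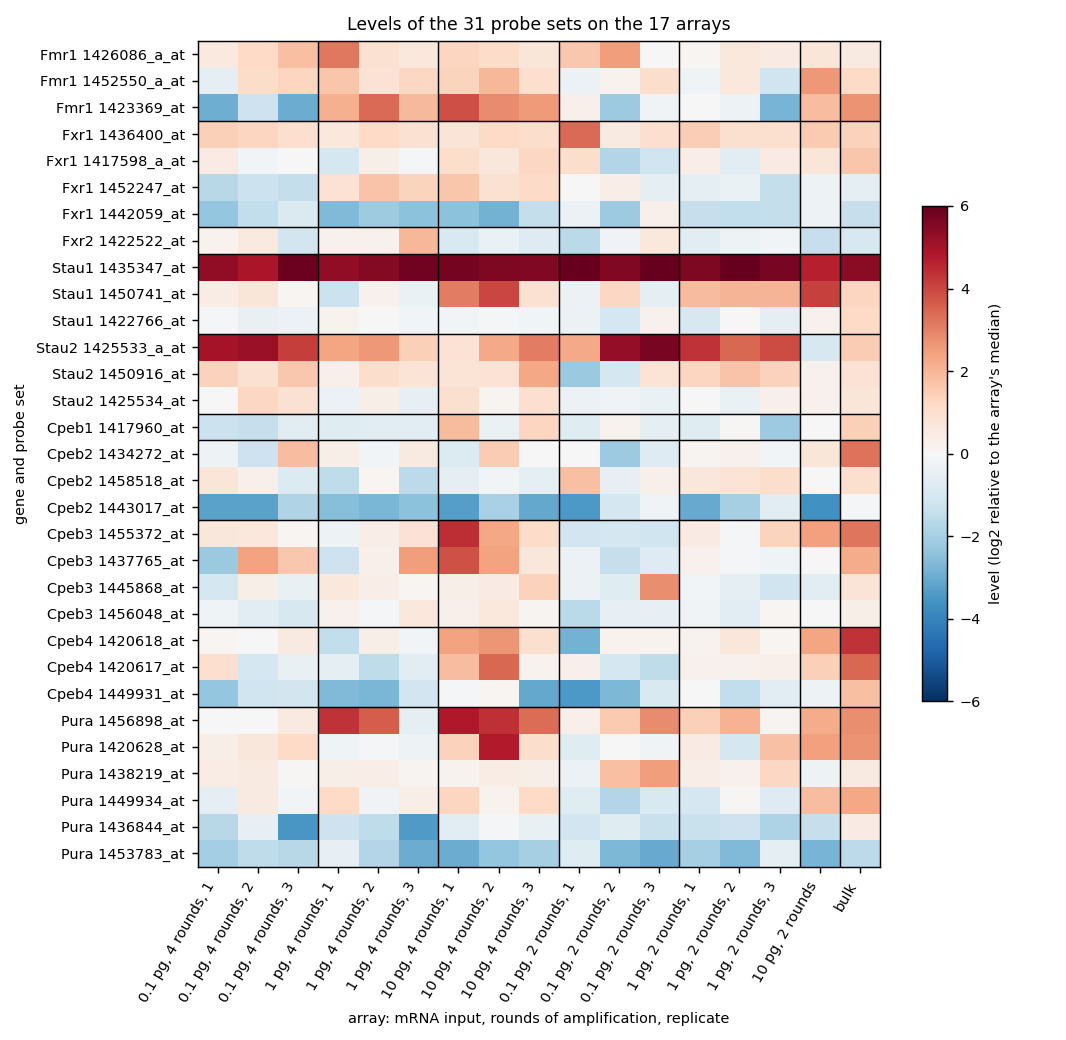
Level of each of the 31 probe sets (rows, grouped by gene) on each of the 17 arrays (columns, with input, rounds and replicate), in log2 against the array's median, with red above and blue below the median. The Stau1 probe set 1435347_at is dark red on all arrays, and the 3 rows of Cpeb4 are paler or blue at 0.1 and 1 pg and red in bulk.

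After 4 rounds, the level differed between 0.1 and 10 pg at single probe sets of several of these genes. Of the 31 probe sets, 6 passed the test between 0.1 and 10 pg (limma, Benjamini-Hochberg adjusted p under 0.05 over all 45037 probe sets), of which 5 were lower at 0.1 pg and 1, for Stau2, was higher. This is 19.4% of them, beside 8.86% of all probe sets tested, with 4.83% lower and 4.04% higher. Each of the 6 belongs to another gene: Fmr1, Fxr1, Stau1, Stau2, Cpeb1 and Pura. The median difference between 0.1 and 10 pg was -0.84 on the log2 scale over the 31 and 0.10 over all probe sets. The arrays of the groups did not overlap for 10 of the 31, while this was so for 40.3% of all. The count of 6 was 2 without replicate 1 of 10 pg or without replicate 1 or 2 of 0.1 pg, 3 with the methods' t-test and 1 at the study's false discovery rate of 0.1%.

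**Figure D2:**
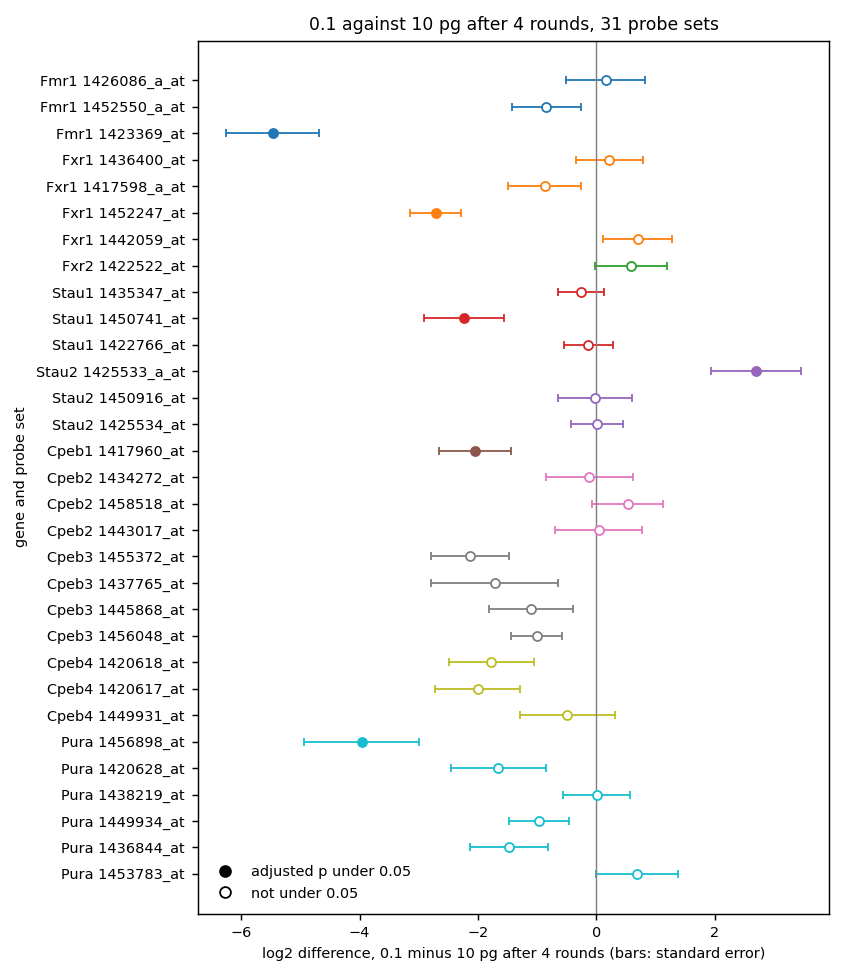
Log2 difference of 0.1 minus 10 pg after 4 rounds for the 31 probe sets, with the standard error of the limma fit as bars. Filled points are the 6 probe sets past the threshold, from -5.47 for Fmr1 1423369_at to 2.69 for Stau2 1425533_a_at, and probe sets of the same gene have the same colour.

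Markers of neurons moved in the same comparison. With each gene at its highest-mean probe set, 4.99% of all genes were lower and 4.97% higher at 0.1 pg, with a median difference of 0.13. Of 6 pan-neuronal markers, 4 were lower at 0.1 than at 10 pg after 4 rounds and 0 higher, with a median difference of -3.33, and the mean level of the 6 lay between 1.63 and 2.59 on the 0.1 pg arrays, against 4.67 to 5.33 on the 10 pg arrays. Among the other markers, 1 of 3 of excitatory and 1 of 5 of inhibitory neurons were lower, 1 of 4 oligodendrocyte markers, 1 of 5 of endothelium and pericytes and 1 of 6 genes of other tissues were higher, and 0 of 6 astrocyte, 0 of 5 microglia and 0 of 2 blood markers changed. The distance between probe sets at the 3' and at the 5' end of control transcripts differed as well: it was -0.81 ± 0.156 at 0.1 pg and 1.13 ± 0.551 at 10 pg for beta-actin, 3.71 ± 0.0292 at 0.1 pg and 4.73 ± 0.207 at 10 pg for Gapdh, and 6.62 ± 0.769 at 0.1 pg and 4.74 ± 0.183 at 10 pg for the transferrin receptor (log2, SD, n = 3 each). The part of either in the values of the RNA-binding proteins was not tested.

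Fmr1 was strongly lower at the lowest input at 1 of its 3 probe sets. At 1423369_at the levels after 4 rounds were -2.91, -1.25 and -2.99 at 0.1 pg, 2.13, 3.40 and 1.94 at 1 pg, and 3.87, 2.84 and 2.54 at 10 pg. With 2 rounds the levels were 0.30, -2.20 and -0.23 at 0.1 pg, 0.03, -0.30 and -2.78 at 1 pg and 1.85 at 10 pg, and bulk was at 2.72. All 3 arrays at 0.1 pg after 4 rounds lay below the array's median and every array at 1 and 10 pg after 4 rounds lay above it. The difference between 0.1 and 10 pg after 4 rounds was -5.47 (SE 0.784, adjusted p = 0.000588), and that between 1 and 10 pg was -0.59 (SE 0.784, adjusted p = 0.916). These comparisons share the 10 pg arrays. The 0.1 pg levels stood at percentiles 1.47, 18.8 and 1.25 of their arrays, where no detection call was used, so that they may lie at background and the size of the difference is one of signals only. In the order of the group means, 10 pg after 4 rounds, bulk and 1 pg after 4 rounds overlapped with their neighbours, as did 0.1 pg after 2 rounds, 1 pg after 2 rounds and 0.1 pg after 4 rounds, and the 10 pg array after 2 rounds lay between these sets without overlap.

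The Fmr1 probe set with the highest mean, 1426086_a_at, had no such difference. The suffix _a_at marks probe sets that match alternative transcripts of a gene. On the 4-round arrays its levels were 0.58, 1.17 and 1.82 at 0.1 pg, 3.18, 0.94 and 0.65 at 1 pg and 1.27, 1.11 and 0.73 at 10 pg. On the 2-round arrays they were 1.64, 2.51 and 0.00 at 0.1 pg, 0.12, 0.64 and 0.47 at 1 pg and 0.72 at 10 pg, and bulk was at 0.55. The 4-round groups of 0.1 and 10 pg overlapped, and the difference was 0.16 (SE 0.667, adjusted p = 0.912). At the third probe set, 1452550_a_at, it was -0.84 (SE 0.58, adjusted p = 0.386). Whether the probe sets of a gene differ in their change was not tested.

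Fxr1, a relative of Fmr1 with roles in muscle as well as in brain, had the same kind of split. At 1452247_at the levels after 4 rounds were -1.68, -1.30 and -1.42 at 0.1 pg, 0.86, 1.72 and 1.35 at 1 pg, and 1.65, 0.93 and 1.17 at 10 pg. The 2-round arrays had 0.00, 0.39 and -0.58 at 0.1 pg, -0.53, -0.42 and -1.42 at 1 pg and -0.29 at 10 pg, and bulk was at -0.57. The 1 and 10 pg arrays after 4 rounds were above all other arrays, bulk included, and the 0.1 pg arrays after 4 rounds were among the lowest. Those 0.1 pg arrays had a mean percentile of 14.8, where no detection call was used, and may lie at background. The difference between 0.1 and 10 pg after 4 rounds was -2.72 (SE 0.432, adjusted p = 0.00127), and between 1 and 10 pg it was 0.06 (SE 0.432, adjusted p = 0.991).

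The other Fxr1 probe sets did not pass the test. The highest-mean one, 1436400_at, had 4-round levels of 1.43, 1.28 and 1.00 at 0.1 pg, 0.63, 1.19 and 0.91 at 1 pg and 0.79, 1.22 and 1.04 at 10 pg. With 2 rounds it had 3.38, 0.56 and 1.00 at 0.1 pg, 1.48, 0.94 and 0.94 at 1 pg and 1.57 at 10 pg, and bulk was at 1.41. Apart from the first 0.1 pg array after 2 rounds, all its arrays lay within a narrow band, and its difference between 0.1 and 10 pg after 4 rounds was 0.22 (SE 0.567, adjusted p = 0.849). At 1417598_a_at and 1442059_at the differences were -0.88 and 0.70. Fxr2, a relative of Fmr1 that is abundant in neurons, had 1 probe set, 1422522_at, with 4-round levels of 0.22, 0.61 and -1.11 at 0.1 pg, 0.24, 0.27 and 1.97 at 1 pg and -0.91, -0.38 and -0.76 at 10 pg. The 2-round levels were -1.64, -0.22 and 0.61 at 0.1 pg, -0.63, -0.30 and -0.18 at 1 pg and -1.38 at 10 pg, with -0.98 in bulk. Its mean lay below the median in every group but 1 pg after 4 rounds. In bulk, both 10 pg groups and 1 pg after 2 rounds all arrays lay below it. The 1 pg arrays after 4 rounds were above all 10 pg arrays after 4 rounds, with a difference of 1.51 that did not pass the test (SE 0.612, adjusted p = 0.403).

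**Figure D3:**
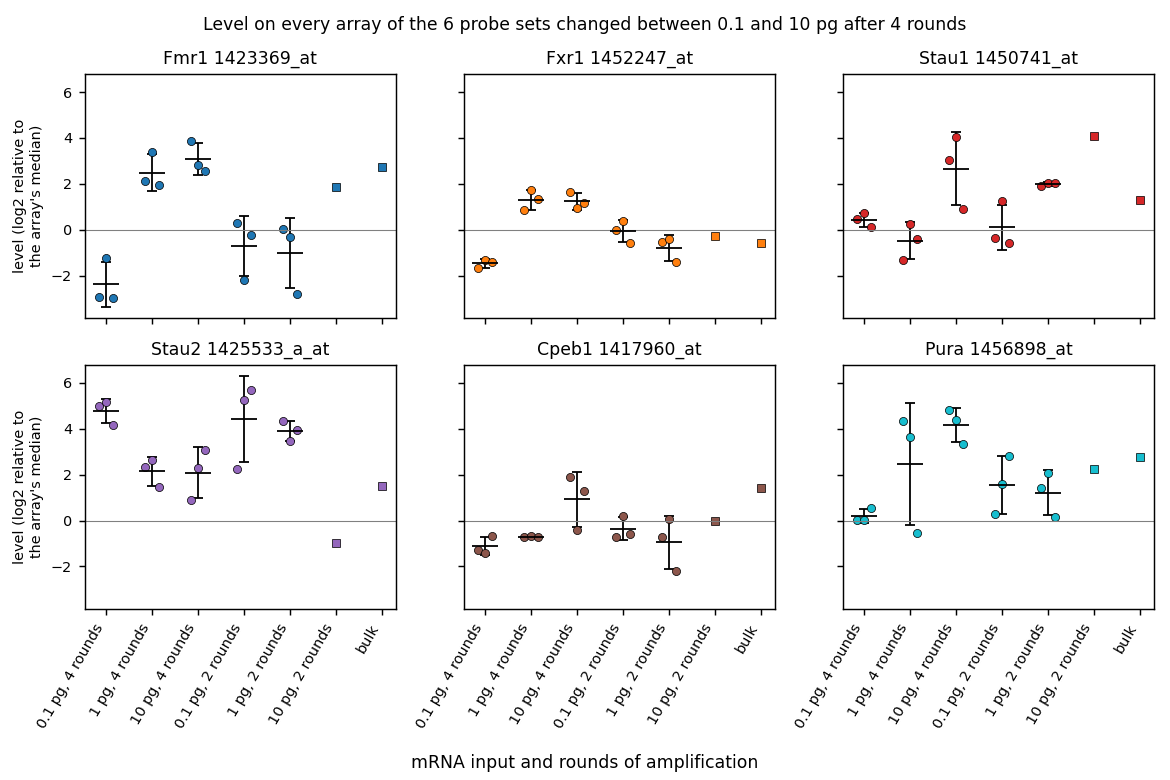
Level (log2 relative to the array's median) of the 6 probe sets that passed the test between 0.1 and 10 pg after 4 rounds, in each of the 7 groups; circles are single arrays, bars the mean ± SD of 3 arrays, and squares the groups of 1 array. For Fmr1 and Fxr1 the 3 arrays at 0.1 pg after 4 rounds sit below 0 and the 6 arrays at 1 and 10 pg after 4 rounds above it, and for Stau2 the 0.1 pg arrays sit above all 10 pg arrays.

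The Staufen genes moved in opposite directions at 1 probe set each. Stau1, which is expressed in most tissues, was at or above percentile 95.1 in the mean of each group at 1435347_at. Its 4-round levels were 5.32, 4.90 and 5.89 at 0.1 pg, 5.33, 5.51 and 5.78 at 1 pg and 5.75, 5.60 and 5.56 at 10 pg. Its 2-round levels were 6.15, 5.56 and 6.11 at 0.1 pg, 5.61, 5.96 and 5.69 at 1 pg and 4.64 at 10 pg, and bulk was at 5.41. All groups but the 10 pg array after 2 rounds overlapped with their neighbours in the order of the means. After 4 rounds, 0.1 minus 10 pg gave -0.26 (SE 0.388, adjusted p = 0.714).

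At 1450741_at, Stau1 was lower at the smaller inputs. Its levels after 4 rounds were 0.46, 0.71 and 0.12 at 0.1 pg, -1.31, 0.27 and -0.38 at 1 pg, and 3.05, 4.02 and 0.92 at 10 pg. After 2 rounds they were -0.35, 1.24 and -0.58 at 0.1 pg, 1.91, 2.03 and 2.04 at 1 pg and 4.08 at 10 pg, and bulk was at 1.29. The third array at 10 pg after 4 rounds was lower than the other two and still above all arrays at 0.1 and 1 pg after 4 rounds. The difference from 10 pg was -2.23 at 0.1 pg (SE 0.675, adjusted p = 0.0493) and -3.14 at 1 pg (SE 0.675, adjusted p = 0.0413), with the 10 pg arrays shared by both. Stau1 1450741_at was the only one of the 31 to pass the test between 1 and 10 pg after 4 rounds, where 0.657% of all probe sets passed and 0.588% were lower. Without single arrays of either side the adjusted p rose to at most 0.224 for 0.1 against 10 pg and 0.205 for 1 against 10 pg, and both calls were lost without replicate 1 or 2 of 10 pg, the first also without any single 0.1 pg array and the second without replicate 1 or 3 of 1 pg. The arrays of 1 and 10 pg did not overlap for 9 of the 31, beside 17.3% of all probe sets, and 8 had an unadjusted p under 0.05, beside 9.51% of all. The median difference was -0.43 over the 31 and 0.05 over all. The remaining Stau1 probe set, 1422766_at, had a difference of -0.14 between 0.1 and 10 pg.

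Stau2, the Staufen paralog that is enriched in brain, was the only one of the 31 probe sets to be higher at 0.1 than at 10 pg after 4 rounds past the threshold. The levels of 1425533_a_at after 4 rounds were 5.00, 5.16 and 4.17 at 0.1 pg, 2.35, 2.62 and 1.45 at 1 pg, and 0.88, 2.28 and 3.09 at 10 pg. With 2 rounds they were 2.26, 5.26 and 5.71 at 0.1 pg, 4.32, 3.45 and 3.93 at 1 pg and -0.98 at 10 pg, and bulk was at 1.51. The 0.1 pg arrays after 4 rounds were above all arrays at 1 and 10 pg after 4 rounds and above bulk. The difference between 0.1 and 10 pg was 2.69 (SE 0.754, adjusted p = 0.0356), and the call was lost without any single one of the 0.1 pg arrays and without replicate 1 or 2 of 10 pg, with an adjusted p of at most 0.176. The other Stau2 probe sets, 1450916_at and 1425534_at, had differences of -0.03 and 0.01.

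**Figure D4:**
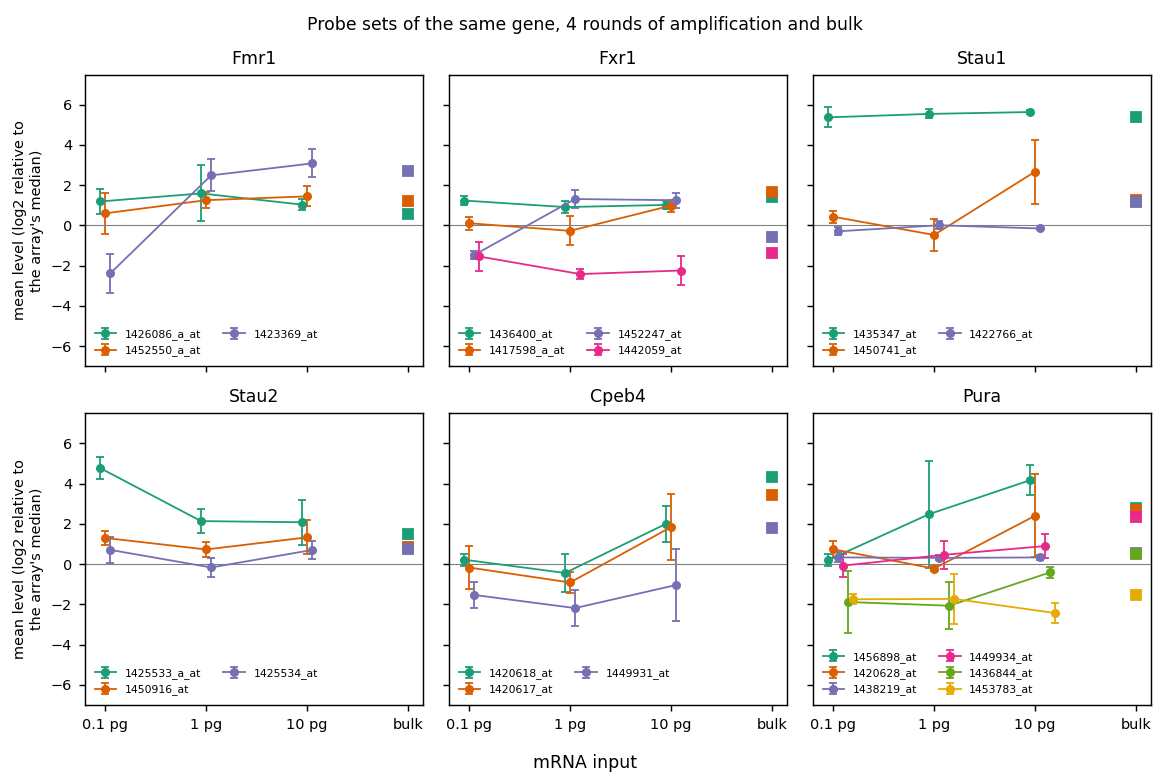
Mean level (log2 relative to the array's median, error bars SD, n = 3) of each probe set of Fmr1, Fxr1, Stau1, Stau2, Cpeb4 and Pura at 0.1, 1 and 10 pg after 4 rounds, with bulk (1 array) as a square. Single lines part from the others of their gene at 0.1 pg, downward for Fmr1 1423369_at and upward for Stau2 1425533_a_at, while the 3 lines of Cpeb4 are all lowest at 1 pg and highest at 10 pg.

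Among the CPEB genes, Cpeb1 passed the test between 0.1 and 10 pg, all probe sets of Cpeb3 and Cpeb4 had differences below 0 that did not pass, and those of Cpeb2 were near 0 or above. Cpeb1, which represses mRNAs with a short poly(A) tail and activates them when it is phosphorylated, had 1 probe set, 1417960_at. Its levels after 4 rounds were -1.30, -1.40 and -0.68 at 0.1 pg, -0.72, -0.66 and -0.70 at 1 pg and 1.92, -0.41 and 1.27 at 10 pg. With 2 rounds they were -0.72, 0.21 and -0.58 at 0.1 pg, -0.73, 0.09 and -2.20 at 1 pg and 0.00 at 10 pg, and bulk was at 1.44. The second 10 pg array after 4 rounds was also below the median and still above the arrays at 0.1 and 1 pg after 4 rounds. Cpeb1 differed by -2.05 between 0.1 and 10 pg (SE 0.61, adjusted p = 0.0458), and between 1 and 10 pg by -1.62 (SE 0.61, adjusted p = 0.349). The first of these was lost without any single array of 0.1 pg and without replicate 1 or 3 of 10 pg, with an adjusted p of at most 0.212. All neighbours in the order of its group means overlapped.

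Cpeb3, which has been linked to the storage of memory in mice, was highest in bulk and at 10 pg at its highest-mean probe set, 1455372_at. The levels after 4 rounds were 0.69, 0.65 and 0.10 at 0.1 pg, -0.32, 0.41 and 0.89 at 1 pg and 4.45, 2.30 and 1.09 at 10 pg. On the 2-round arrays they were -1.15, -1.05 and -1.19 at 0.1 pg, 0.48, -0.09 and 1.34 at 1 pg and 2.47 at 10 pg, and bulk was at 3.22. The 3 arrays at 0.1 pg after 2 rounds were the lowest of all 17. For 0.1 against 10 pg after 4 rounds the difference was -2.13 and just missed the threshold (SE 0.655, adjusted p = 0.0522), and it was -2.90 with an adjusted p of 0.0104 without replicate 3 of 10 pg. The other Cpeb3 probe sets had differences of -1.72, -1.11 and -1.01, so that all 4 were below 0 and 0 of 4 passed the test.

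The 3 probe sets of Cpeb4 shared the order of their means after 4 rounds, lowest at 1 pg and highest at 10 pg. The arrays of 0.1 and 1 pg overlapped at all 3, however. At 1449931_at the 10 pg arrays, from -3.08 to 0.09, overlapped both other inputs. At 1420618_at the levels after 4 rounds were 0.12, -0.02 and 0.56 at 0.1 pg, -1.48, 0.34 and -0.18 at 1 pg and 2.39, 2.65 and 0.96 at 10 pg. After 2 rounds they were -2.83, 0.21 and 0.20 at 0.1 pg, 0.21, 0.69 and 0.11 at 1 pg and 2.36 at 10 pg, and bulk was at 4.32. All 4 arrays at 10 pg were above all 12 arrays at 0.1 and 1 pg, and bulk was above the 16 amplified arrays. The differences between 0.1 and 10 pg after 4 rounds were -1.78 at 1420618_at, -2.01 at 1420617_at and -0.49 at 1449931_at, with adjusted p-values of 0.133, 0.0919 and 0.747. Between 1 and 10 pg they were -2.44, -2.75 and -1.15, with adjusted p-values of 0.181, 0.112 and 0.76. Over the 17 arrays, which share these groups, Pearson's r between the 3 probe sets was 0.63 to 0.77.

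Cpeb2 had no probe set past the threshold. Its highest-mean probe set, 1434272_at, had 4-round levels of -0.30, -1.23 and 1.86 at 0.1 pg, 0.37, -0.15 and 0.52 at 1 pg and -0.82, 1.52 and 0.00 at 10 pg. With 2 rounds it had 0.00, -2.20 and -0.80 at 0.1 pg, 0.15, 0.24 and -0.18 at 1 pg and 0.72 at 10 pg, and bulk was at 3.24. The amplified groups of 3 arrays overlapped with their neighbours, and bulk was above all 16 amplified arrays. The differences between 0.1 and 10 pg after 4 rounds were -0.12, 0.53 and 0.03 at its 3 probe sets.

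Pura was lower at 0.1 than at 10 pg at 1 of its 6 probe sets. At 1456898_at the levels after 4 rounds were 0.01, 0.04 and 0.56 at 0.1 pg, 4.36, 3.65 and -0.56 at 1 pg, and 4.80, 4.37 and 3.34 at 10 pg. After 2 rounds they were 0.30, 1.58 and 2.83 at 0.1 pg, 1.43, 2.06 and 0.16 at 1 pg and 2.23 at 10 pg, and bulk was at 2.77. The 3 arrays at 10 pg after 4 rounds were above bulk, and at 1 pg after 4 rounds the third array lay far below the other two. Pura 1456898_at differed by -3.97 between 0.1 and 10 pg (SE 0.973, adjusted p = 0.0187), and between 1 and 10 pg by -1.69 (SE 0.973, adjusted p = 0.661). The call for 0.1 against 10 pg was lost without replicate 1 or 2 of either group, with an adjusted p of at most 0.0869. Of the other 5 Pura probe sets, 3 had differences between -1.66 and -0.97 and 2 had differences of 0.00 and 0.69.

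Whether the level of a probe set varied at all over the 5 groups of 3 arrays was asked with the F-test of the same model. It was passed by 6 of the 31, or 19.4%, near the 18.9% of all probe sets. The 6 were Fmr1 1423369_at, Fxr1 1452247_at, Stau1 1450741_at, Stau2 1425533_a_at, Cpeb3 1455372_at and Pura 1449934_at. The F-test call of Stau2 was lost in 9 of 23 alternatives, with an adjusted p of at most 0.0735: at the false discovery rate of 0.1%, without replicate 1 or 3 of 1 pg in either number of rounds, and, after 4 rounds, without replicate 1 or 2 of 0.1 or of 10 pg. For Cpeb3 the group means spanned 3.74 (adjusted p = 0.0112). For Pura 1449934_at they spanned 2.03 (adjusted p = 0.0448), and the call was lost in 14 of 23 alternatives, with an adjusted p of at most 0.118. These were the deposited values, the false discovery rate of 0.1%, the replicate block and single arrays left out: replicate 1 or 3 of 1 pg in either number of rounds, replicate 2 or 3 of 0.1 pg after 2 rounds, any of 0.1 pg after 4 rounds, and replicate 1 or 3 of 10 pg after 4 rounds. Its 4-round levels were -0.57, 0.53 and -0.17 at 0.1 pg, 1.20, -0.19 and 0.38 at 1 pg and 1.31, 0.21 and 1.18 at 10 pg, and its 2-round levels were -0.72, -1.77 and -0.91 at 0.1 pg, -1.03, 0.09 and -0.78 at 1 pg and 1.85 at 10 pg. The lowest group was thus 0.1 pg with 2 rounds, and bulk, at 2.34, was above all 16 amplified arrays.

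The effect of the rounds of amplification depended on the input at 1 probe set of Fmr1 and 1 of Fxr1. At Fmr1 1423369_at, 4 minus 2 rounds gave -1.68 at 0.1 pg and 3.50 at 1 pg, a difference between the inputs of -5.18 (SE 1.11, adjusted p = 0.0206, and at most 0.0663 without single arrays). At Fxr1 1452247_at, it gave -1.40 at 0.1 pg and 2.10 at 1 pg, a difference of -3.51 (SE 0.611, adjusted p = 0.0084). These were the 2 of the 31 that passed the interaction test, both in the direction in which 1.14% of all probe sets passed, with 3.59% in either direction. Averaged over 0.1 and 1 pg, 0 of the 31 changed between 4 and 2 rounds, where 3.91% of all did, and 5 had an unadjusted p under 0.05, as did 21.8% of all. The lowest adjusted p there was 0.107, for Pura 1449934_at with a difference of 1.05, and the arrays of the 2 sides overlapped for all 31, while 1.83% of all probe sets did not overlap.

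**Figure D5:**
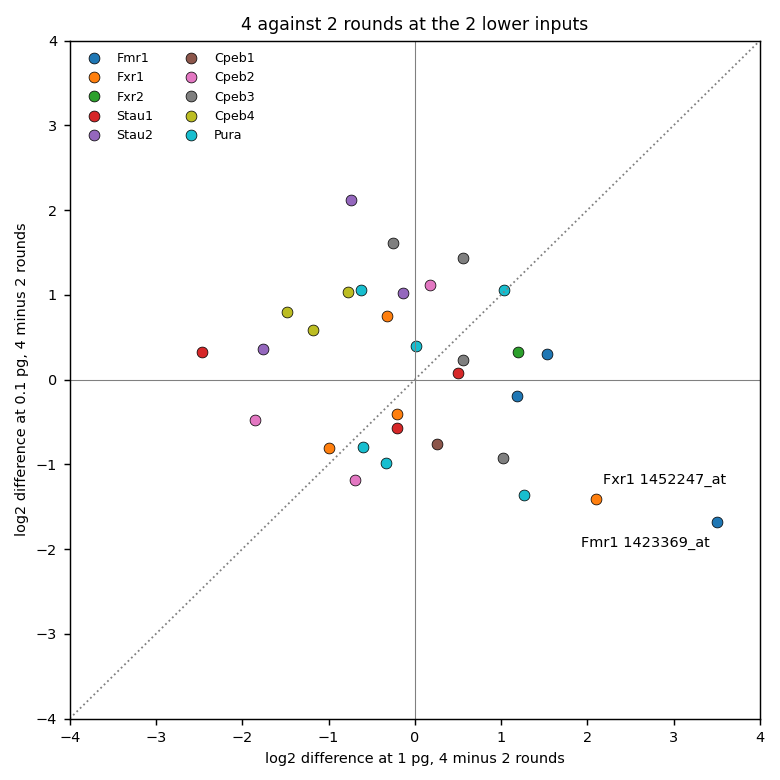
Log2 difference of 4 minus 2 rounds at 0.1 pg (vertical axis) against the same difference at 1 pg (horizontal axis) for the 31 probe sets, coloured by gene, with equal differences on the dotted line. The named points, Fmr1 1423369_at and Fxr1 1452247_at, lie at the lower right, higher after 4 rounds at 1 pg and lower after 4 rounds at 0.1 pg.

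Between 0.1 and 1 pg, averaged over 2 and 4 rounds, 0 of the 31 passed the limma test, where 1.24% of all probe sets did, and 4 had an unadjusted p under 0.05, as did 15.1% of all. On the lower side the largest fitted difference was that of Fmr1 1423369_at, at -2.28 (SE 0.555, adjusted p = 0.0547), and on the upper side that of Stau2 1425533_a_at, at 1.57 (SE 0.533, adjusted p = 0.167). The arrays overlapped between the inputs for all 31, while 0.626% of all probe sets did not overlap.

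Against bulk, most of the 31 were lower after amplification, though none passed the test with the single bulk array, where 1.1% of all probe sets did. In bulk, 26 of the 31 lay above the array's median, with their median level at 1.29. The values over all probe sets here and in the next paragraph were not matched to that level. The mean of the 6 amplified groups was below bulk for 25 and above it for 6, with a median difference of -0.79, and 0.10 over all probe sets; 11 had an unadjusted p under 0.05, beside 13.4% of all. The 6 lowest differences were all at CPEB probe sets, with -3.71 (SE 0.912, adjusted p = 0.0621), -3.16 and -3.16 for the probe sets of Cpeb4, -3.17 and -2.43 for Cpeb2 1434272_at and 1443017_at and -2.33 for Cpeb3 1455372_at. The other 5 CPEB probe sets lay between -1.81 and -0.54, where Fmr1 1423369_at had -2.16 and Pura 1449934_at -2.10. Bulk was outside the range of the 16 amplified arrays for 8 of the 31, beside 13.9% of all, and on its upper side in each of the 8: Fxr1 1417598_a_at, Stau1 1422766_at, Cpeb2 1434272_at and 1443017_at, Cpeb4 1420618_at and 1449931_at, and Pura 1449934_at and 1436844_at. The positive differences were at most 1.21, for Stau2 1425533_a_at. Cpeb2 1443017_at stood at mean percentiles of 0.173 to 23.2 in the amplified groups and at percentile 46.9 in bulk. Cpeb4 1449931_at was at 9.06 with 1 pg after 4 rounds and at 9.69 with 0.1 pg after 2 rounds. Both may lie at background in these amplified groups, as no detection call was used.

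By group, the distance from bulk was smallest at 10 pg after 4 rounds. With 4 rounds, the median absolute deviation of the 31 from bulk was 1.47 for 0.1 pg, 1.71 for 1 pg and 0.603 for 10 pg, where that of all probe sets was 0.847, 0.599 and 0.542. With 2 rounds it was 1.46, 1.55 and 0.936 over these inputs from low to high, and 0.948, 0.872 and 0.927 for all probe sets. The values of 10 pg after 2 rounds are those of 1 array, and the others come from means of 3, so they are not directly comparable. The group mean was below bulk for 27, 25 and 19 of the 31 with 4 rounds and for 23, 25 and 25 with 2 rounds, in the same order. The median SD between the 3 arrays of a group was highest at 0.1 pg after 2 rounds, with 1.14 for the 31 and 0.844 for all probe sets, and lay between 0.433 and 0.599 for the 31 in the other groups.

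A single value per gene gave a different set of genes for each way of taking it. For this, limma was fitted again to 1 value a gene, with the adjustment over 18193 genes. Shares and adjusted p-values therefore differ from those of the fit over all probe sets. With each gene at its highest-mean probe set, 4 of the 10 genes passed between 0.1 and 10 pg after 4 rounds, beside 10.9% of all genes: Stau2, higher at 0.1 pg, and Cpeb1, Cpeb3 and Pura, lower. Cpeb3, at the same probe set, had an adjusted p of 0.0496 in this limma fit and 0.0522 in the main one. With the median over the probe sets of each gene, 5 passed, beside 8.19% of all, and all were lower at 0.1 pg: Fxr1 at -1.53, Stau1 at -2.23, Cpeb1 at -2.05, Cpeb3 at -1.59 and Cpeb4 at -2.02. Cpeb1 and Cpeb3 passed both ways, and Fmr1, Fxr2 and Cpeb2 passed neither. The differences of the probe sets of a gene spanned 5.62 for Fmr1, 3.41 for Fxr1, 2.09 for Stau1, 2.72 for Stau2 and 4.65 for Pura.

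The genes whose profile over the 17 arrays was most like that of a member's highest-mean probe set were found by Pearson's r, as a description of arrays that share their inputs, rounds and RNA. They were Idh1 and Zfand5 for Pura (0.955 and 0.922), Hsf5 and Zfp606 for Stau2 (0.944 and 0.937), Cask and Hmgxb3 for Cpeb3 (0.941 and 0.905), and Rad23b and Vsnl1 for Cpeb4 (0.891 and 0.875). For Stau1 they were Oxct1 and Ankib1 (0.888 and 0.867), for Fxr1 Adamtsl3 and Mkln1os (0.88 and 0.879), for Fxr2 5830448L01Rik and Mapk8 (0.86 and 0.848), for Cpeb1 Ttc9 and Gid4 (0.858 and 0.844), for Cpeb2 Fgd4 and Rgmb (0.857 and 0.844) and for Fmr1 Clock and Eif3e (0.854 and 0.782). Between probe sets of the same gene r was at most 0.77, for Cpeb4, and between the 3 probe sets of Stau1 it was negative throughout, from -0.33 to -0.05.

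Other genes of the pathway were taken from lists, each gene by its highest-mean probe set. Between 0.1 and 10 pg after 4 rounds, where 9.97% of all genes changed, 4.97% higher and 4.99% lower, the RNA-binding proteins of granules had 11 lower and 3 higher of 40 measured, with a median difference of -0.53 beside 0.13 over all genes. Lower were among others Tardbp, an RNA-binding protein of transport granules and of splicing, at -4.90 (adjusted p = 7.56e-05), the Pura paralog Purb, at -3.39 (adjusted p = 0.000427), the helicase Ddx6 of P-bodies, at -3.58, and the neuronal Hu protein Elavl3, at -3.53. Hnrnpa2b1, which binds a transport element of dendritic mRNAs, differed by -3.25 and the zipcode-binding protein Igf2bp1 by -2.05. Higher were Celf1, at 2.32, Elavl1, at 2.12, and the nonsense-mediated decay helicase Upf1, at 1.74.

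The mRNAs localized in dendrites, the cargo of such granules, had 7 lower and 0 higher of 20 measured, with a median of -1.15. The 7 were Gria2 at -4.88, Map1b at -4.72, Psd at -3.65, App at -3.53, Actb at -2.90, Gria1 at -2.51 and Bdnf at -2.41; Map1b mRNA is a well-studied target of FMRP. Camk2a and Arc, further dendritic mRNAs, had -0.38 and -1.19 and did not pass the test. In the other direction, Homer1 had 3.76 (adjusted p = 0.0775) and Limk1 0.61, and neither passed the limma test. Of the partners in translation, 2 of 24 were lower, the helicase Eif4a2 at -2.39 and Paip2, an inhibitor of poly(A)-binding protein, at -2.63, and the median was 0.02. Of the motors and adaptors, 1 of 13 was lower, the kinesin light chain Klc1 at -3.57, and the median was 0.41. Over all genes, 9.97% changed and 4.99% were lower in this comparison. The counts of partners and of motors lie near these shares and are no result about those lists.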

How the data were processed

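Affymetrix mouse arrays measured cortex mRNA in 17 hybridizations. The authors summarized probe sets with RMA 2.0 and deposited log2 values. The median centering and percentile-range scaling that the methods describe are not in these values, and both were applied here: the median of an array was subtracted, and the values were divided by the distance between the percentiles 10 and 90 and brought back to log2 units by its mean over the arrays, 4.63. All 17 columns were matched to arrays by their labels, and 0 columns had no sample. The 64 control probe sets of 45101 were left out. Of the rest, 34945 carry 1 gene symbol in the array's annotation, 932 several and 9160 none.

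The test was that of limma 3.58.1 (R 4.3.3; 7 group means over 17 arrays, contrasts, eBayes, 16.4 total degrees of freedom), with Benjamini-Hochberg adjustment over 45037 probe sets and a threshold of 0.05. The groups of 1 array were assumed to vary like the others. The pipeline was tested on simulated data. Descriptions and figures used python 3.11.15, numpy 2.4.6, pandas 2.3.3 and matplotlib 3.10.9. Values per array are given for the highest-mean probe set of a gene and for each further one that passed a test. The lists are RNA-binding proteins of granules, partners in translation, motors and adaptors, mRNAs localized in dendrites and the cell type markers. The genes, lists and tests were chosen with earlier results of these data known. The sources do not say whether the labeling round counts among the rounds of amplification. Detection calls, scan dates and gene positions were not used here, and the number of arrays limits the precision. Alternatives changed the scaling (as deposited, centering without scaling, quantiles), the filter (upper part of the probe sets), the false discovery rate (0.1%), the groups in the model (those compared and no others), the test (the methods' t-test), the replicate number (as a block) and the arrays (each left out). The results with 1 value a gene came from separate limma fits with the adjustment over 18193 genes. The median over the probe sets of each gene was added after seeing the data.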

Additional observations from a re-analysis of the deposited data

Results flagged for a closer look

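The effect of 4 against 2 rounds differed between 0.1 and 1 pg at 2 of the 31 probe sets, by the interaction term of the limma model. The difference was -5.18 for Fmr1 1423369_at, for which the 3 arrays at 1 pg were higher after 4 rounds than after 2 rounds without overlap. It was -3.51 for Fxr1 1452247_at, for which the arrays after 4 rounds were above those after 2 rounds at 1 pg and below them at 0.1 pg, each without overlap.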

How the results depend on the processing

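Between 0.1 and 10 pg after 4 rounds, 6 of the 31 probe sets changed, 1 at the study's false discovery rate of 0.1%, 3 with the methods' t-test and 2 to 7 when single arrays were left out: 2 without replicate 1 of 10 pg, or without replicate 1 or 2 of 0.1 pg, and 3 without replicate 2 of 10 pg or replicate 3 of 0.1 pg. The t-test lost Stau1 1450741_at, Stau2 and Cpeb1, and with only the compared groups in the model Stau1 1450741_at was lost and Cpeb4 1420618_at gained (adjusted p = 0.0363). Fmr1 1423369_at passed in 15 of 15 alternatives (adjusted p 0.000496 to 0.0476) and Fxr1 1452247_at in 14 of 15. Between 1 and 10 pg the count was 1, and 0 at the false discovery rate of 0.1%, when the model held only the groups compared and with the t-test, and 0 to 3 without single arrays, with 3 without replicate 3 of 10 pg. Between 0.1 and 1 pg it was 0, and 1 among the probe sets at or above the median (Fmr1 1423369_at), and 0 to 2 without single arrays, of 2 rounds in each case: 1 without replicate 3 of 1 pg and 2 without replicate 1 of 0.1 pg. Between 4 and 2 rounds it was 0, and 0 to 1 without single arrays, with 1 without replicate 1 or 2 of 0.1 pg after 2 rounds. In the interaction it was 2, and 0 at the false discovery rate of 0.1% and 1 to 3 without single arrays: Fmr1 1423369_at was lost without replicate 3 of 1 pg after 2 rounds or replicate 1 of 0.1 pg after 4 rounds. Amplified against bulk it was 0, and 1 with the deposited values, with median centering alone and without the 10 pg array after 2 rounds, and 0 to 1 without single arrays, with 1 without any array of 0.1 pg after 2 rounds; this was Cpeb4 1420618_at each time. Over the 5 groups it was 6, and 1 at the false discovery rate of 0.1% and 4 to 10 without single arrays, with 10 without replicate 1 of 0.1 pg after 2 rounds. For the probe sets that passed a test in the main model, no direction reversed in the alternatives run. The other probe sets were not checked for this, and the F-test has no direction. The causes of these changes were not tested.

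The replicate numbers did not pair the arrays: same-numbered arrays of different groups had a mean correlation of -0.00714 in their deviations from the group means, and 4 of 15 arrays correlated best with their own number. With the number as a replicate block, the count was 5 between 0.1 and 10 pg, without Cpeb1, 1 between 1 and 10 pg, 2 in the interaction and 6 over the 5 groups, without Pura 1449934_at and with Stau2 1450916_at. The t-test could not be run for the interaction, the F-test or the single bulk array.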
